A study of Mus musculus with 4 samples.

Results

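The 10 genes described here encode the macrophage factor PU.1 and other ETS transcription factors of the mouse: Spi1 (which encodes PU.1), Elf1, Elf2, Ets2, Fli1, Etv3, Etv5, Etv6, Elk3 and Gabpa, out of 21755 protein-coding genes on the chromosomes of the peak lists. Each was described by every RBPJ peak that lay in its body, came within 1 kb of a transcription start site (TSS) or had the gene as its nearest protein-coding TSS. Together they held 310 of the 106228 peaks of RBPJ replicate 1, 131 of the 47224 peaks of replicate 2 and 81 of the 25454 consensus regions, which are merged intervals with a peak of each library. RBPJ was profiled by HT-ChIPmentation, chromatin immunoprecipitation with tagmentation on the beads, in fixed and sorted alveolar macrophages (AMs) from the bronchoalveolar lavage of WT mice on the C57BL/6J strain, 9 wk of age. The 4 samples were 2 RBPJ libraries and 2 inputs without antibody. The inputs had no file here and entered through the peak calling. The samples held no second genotype or treatment, and the labels do not say whether the libraries came from separate animals, so the values below are a description of 2 libraries of 1 condition, with no test between groups.

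ETS factors share a DNA-binding domain that reads a GGA core. PU.1 is the member on which macrophage development depends, and it opens chromatin at macrophage enhancers together with factors such as CEBP and AP-1. RBPJ is the DNA-binding partner of the Notch receptors. It reads a core with the letters TGGGAA, represses its targets in the absence of Notch signalling and activates them once the cleaved receptor joins it.

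The macrophage label was checked on the promoters of marker genes. A promoter region, meaning a consensus region within 1 kb of a TSS, was present at 7 of 8 AM markers, with Marco the exception, at 0 of 8 lymphocyte markers, and at 1 of 5 markers each of type II cells (Napsa), endothelium (Pecam1) and neutrophils (S100a8), beside 33.7% of all genes. By the wider rule used for the members, any region was present at 8 of 8 AM markers and at 2 of 8 lymphocyte markers (Cd4 and Ms4a1). It was also present at 2 of 5 endothelial markers (Cdh5 and Pecam1) and at 1 of 5 each for type II cells and neutrophils. The share of all genes by this rule was 45.0%. Occupancy is not expression, so this check bears on chromatin only.

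RBPJ regions occurred at all 10 ETS factor genes, beside 45.0% of all protein-coding genes with any region by the same rule. With peaks of −log10 q 5 or more this held for 8 of 10 (without Etv3 and Gabpa), and with the libraries' summits within 100 bp also for 8 (without Etv3 and Etv5). The share of all genes with any region was not computed under these stricter settings, so 45.0% is not the value to set beside them. A promoter region was present at 8 of the 10, namely Spi1, Elf1, Elf2, Ets2, Fli1, Etv5, Etv6 and Gabpa, beside 33.7% of all genes. Etv3 and Elk3 had none. In the lists taken singly, 9 members had a promoter peak in replicate 1 (all but Elk3), beside 46.1% of genes, and 8 had one in replicate 2, beside 37.5%. The members are long genes, with a median length of 61066.5 bp against 17414 bp over all genes, which gives the rule more sequence to find a region in. Per 10 kb of gene body they held 0.997 regions, against 0.178 over all genes. The part of gene length, expression or open chromatin in these counts was not tested. The members were also chosen with earlier results of these data known, so the counts beside all genes are a description and not a measure of enrichment.

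**Figure D1:**
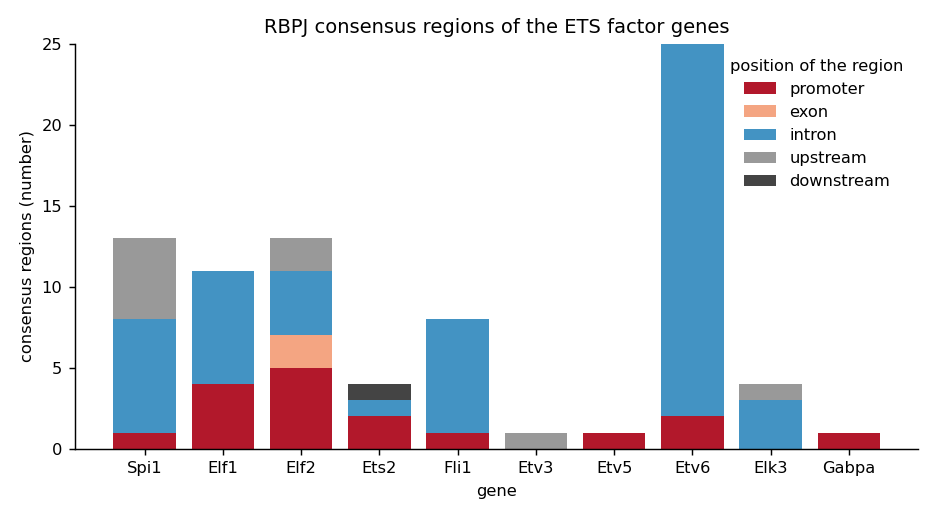
Number of RBPJ consensus regions (vertical axis) of each ETS factor gene (horizontal axis), stacked by the position of the region: promoter, exon, intron, upstream or downstream of the gene's transcripts. Etv6 had 25 regions and Spi1 and Elf2 had 13 each, whereas Etv3, Etv5 and Gabpa had 1 each.

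The values of a region are the fold enrichment over background that the peak caller gave at its highest peak in each library. Most folds lay on a ladder. In replicate 1, 70.6% of all peaks had a fold within 0.005 of a whole multiple of 0.254, and in replicate 2, 78.1% were within 0.005 of a multiple of 0.335. By the formula of the caller, which adds 1 to both the pileup and its background, each step stands for 1 more overlapping fragment or read at the lowest background. The members' regions on the ladder spanned 14 to 58 steps in replicate 1 and 9 to 42 in replicate 2, with medians of 26 and 16. A fold of 7.61 in replicate 1, for example, stood for a pileup of 29, whose exact Poisson 95% interval runs from 5.18 to 10.8 in units of fold and covers counting error only. Regions that differ by a few steps can therefore not be ordered.

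These sequences were chosen because they carry the strongest region, or the clearest pairing of motif letters, at the genes on which the description turns. The strongest regions of the other members are not shown, and none of their windows held TGGGAA. The sequences shown are thus not typical of the members' windows, of which 22.2% held TGGGAA. Each sequence is the plus strand of GRCm38, 100 bp to either side of the summit, in lower case. The capitals mark matches, on either strand, to TGGGAA (RBPJ), GAGGAAGT (PU.1), the shorter ETS core GGAAGT or TGANTCA (AP-1). The longer strings contain the shorter ones, and a match is a description of letters, not a binding site.
Spi1, chr2:91086511-91086711: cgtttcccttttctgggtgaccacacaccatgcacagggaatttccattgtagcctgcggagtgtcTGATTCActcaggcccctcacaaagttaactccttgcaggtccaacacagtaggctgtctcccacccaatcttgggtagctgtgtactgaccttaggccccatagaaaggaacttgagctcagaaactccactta
Spi1, chr2:91089151-91089351: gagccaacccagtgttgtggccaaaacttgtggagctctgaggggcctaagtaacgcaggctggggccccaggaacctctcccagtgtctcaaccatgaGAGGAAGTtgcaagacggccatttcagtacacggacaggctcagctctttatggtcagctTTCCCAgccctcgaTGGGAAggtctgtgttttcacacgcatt
Fli1, chr9:32508740-32508940: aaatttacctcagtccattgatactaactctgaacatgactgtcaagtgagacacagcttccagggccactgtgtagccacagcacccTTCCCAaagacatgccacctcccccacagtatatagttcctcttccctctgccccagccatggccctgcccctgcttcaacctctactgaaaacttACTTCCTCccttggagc
Ets2, chr16:95728908-95729108: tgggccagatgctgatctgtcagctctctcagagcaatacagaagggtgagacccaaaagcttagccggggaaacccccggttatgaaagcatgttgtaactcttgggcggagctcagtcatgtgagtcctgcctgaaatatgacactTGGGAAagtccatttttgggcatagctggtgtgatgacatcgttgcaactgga
Elf1, chr14:79481635-79481835: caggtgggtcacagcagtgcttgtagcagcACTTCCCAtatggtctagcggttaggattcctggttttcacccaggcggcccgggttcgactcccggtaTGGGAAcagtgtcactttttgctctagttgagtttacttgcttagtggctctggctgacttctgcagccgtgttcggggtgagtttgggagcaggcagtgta

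Spi1 had 13 consensus regions in and around a gene of 33367 bp on chromosome 2, more than 98.7% of all genes, at 3.9 regions per 10 kb of body. All 18 of its replicate 2 peaks touched a peak of replicate 1, whereas 14 of its 33 replicate 1 peaks touched one of replicate 2. Of these regions, 5 lay upstream of the TSS of the basic annotation, 1 at the promoter and 7 in introns. The Spi1 TSS was the nearest for 10 of the 13. The region 13379 bp upstream was nearer to the TSS of Slc39a13, and those 13835 and 16578 bp downstream were nearer to that of Mybpc3. The strongest region of Spi1, by the lower fold of the 2 libraries, had its summit 9485 bp upstream of the TSS (chr2:91086384-91087118). Replicates 1 and 2 gave it folds of 7.61 and 7.7. In 89.4% of all consensus regions the lower fold was smaller. Its window held an AP-1 match, in capitals in the first sequence, and neither TGGGAA nor an ETS match.

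Further upstream, a region of 3623 bp with its summit at 13379 bp had folds of 8.12 and 6.36 in replicates 1 and 2, from 1 and 4 peaks. It was the widest of the 81 regions, and it lay over the starts of longer Spi1 transcripts that only the full annotation holds. Spi1 is known to be controlled by a distal upstream enhancer, but no enhancer annotation was used here, so none of these regions was matched to it. The region 6845 bp upstream had folds of 7.87 and 5.69. Its window, the second sequence, held a PU.1 match at the summit and 2 matches to TGGGAA that start 59 and 73 bp away. The same window thus paired the letters of RBPJ with those of the factor that the gene encodes. At the promoter, the fold was 4.27 in replicate 1 and 8.37 in replicate 2, and the summits of the libraries were 943 bp apart, so the libraries placed the highest point of that region differently. The intronic region at 5398 bp was in turn higher in replicate 1 (9.13) than in replicate 2 (4.32). Over the 13 regions, 8 were higher in replicate 1 and 5 in replicate 2.

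**Figure D2:**
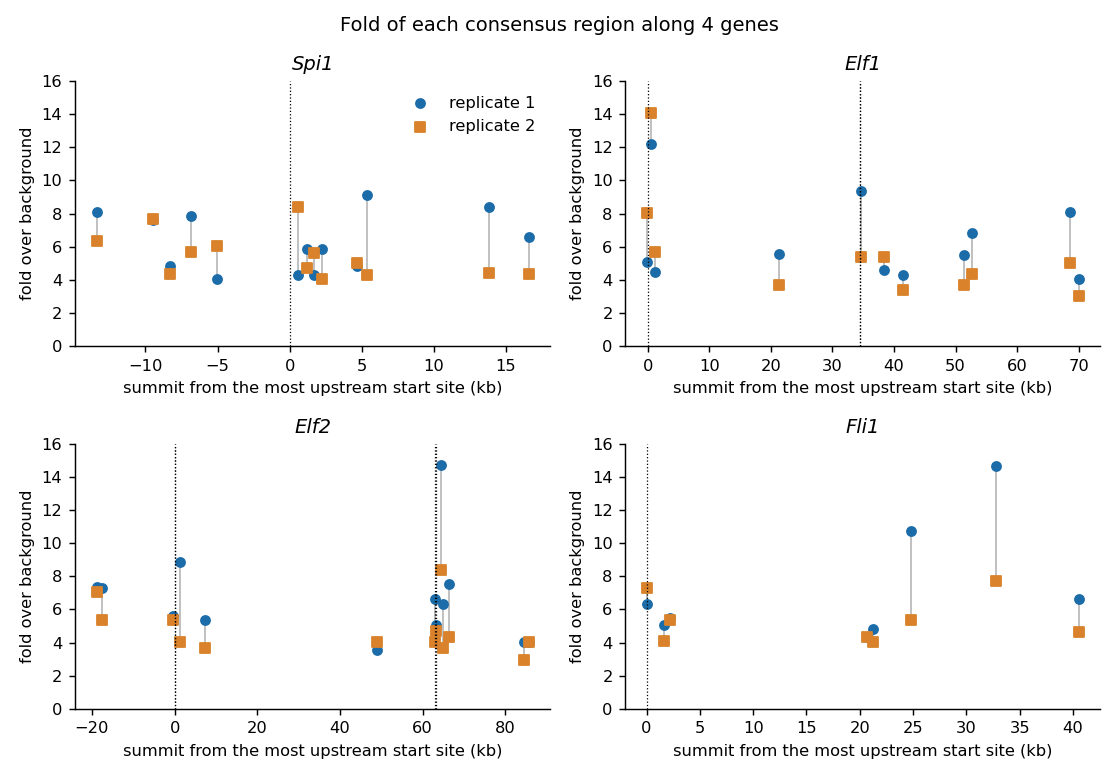
Fold over background (vertical axis, linear) of each consensus region in replicate 1 (circles) and replicate 2 (squares), by the distance in kb of its summit from the most upstream start site in use (horizontal axis), for Spi1, Elf1, Elf2 and Fli1. Dotted lines mark start sites nearest to a region and grey lines join the libraries. Spi1 had regions on both sides of its start, and the highest folds were 14.06 at Elf1, 14.72 at Elf2 and 14.64 at Fli1.

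Elf1 and Elf2 encode closely related ETS factors of the ELF group that act in blood cells. By the lower fold of the 2 libraries, Elf1 had the highest region of all members, 541 bp downstream of its first TSS (chr14:79481371-79482025). The TSS of its neighbour on the opposite strand, Wbp4, was nearer to the summit, at 215 bp. The fold of this region was 12.18 in replicate 1 and 14.06 in replicate 2, and 257 of all consensus regions had a higher lower fold. In replicate 1 alone, Elf2 (14.72), Fli1 (14.64) and Ets2 (12.84) were higher. The summits of both libraries fell inside a tRNA gene. This was n-TEttc4, a glutamic acid tRNA gene of 72 bp in RefSeq (chr14:79481668-79481739, plus strand), at base 48 for replicate 1 and base 68 for replicate 2, counted from the gene's first base. Both TGGGAA matches of the Elf1 window, shown in the last sequence, were at the ends of this gene: the one that starts at base 67 covers its last 6 bases, and the other starts 1 base before the gene.

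Both regions upstream of Elf2 also lay over tRNA genes, here of proline. The region 17662 bp upstream, over n-TPtgg7, had folds of 7.3 and 5.36 in replicates 1 and 2. The region 18831 bp upstream, over n-TPagg5, had folds of 7.36 and 7.03. Of the summits of these 2 regions, only that of replicate 2 at n-TPagg5 (base 17 of 72) fell inside the tRNA gene. Regions over a tRNA gene thus made up 3 of the members' 81 (3.7%), against 0.468% of all consensus regions, and those 119 regions had a median lower fold of 9.71 against 4.69 over all. Whether the signal there belongs to the ETS gene or to the tRNA gene cannot be told apart. At the Elf1 region, Wbp4 cannot be told apart as the owner either. Without the tRNA region, the strongest region of Elf1 was at its second promoter, 145 bp downstream of a later TSS, with folds of 9.39 and 5.36.

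Elf2 had 13 regions, of which 5 were within 1 kb of a TSS, 4 in introns, 2 in exons and 2 upstream. Promoter regions occurred at a downstream and at an upstream group of its start sites. A further start between these groups had no promoter region, only a peak of replicate 1 with a fold of 6.6. The strongest region of Elf2 lay just inside the downstream group (chr3:51275943-51276589, summit 1163 bp past a TSS), with folds of 14.72 and 8.37. Like the other promoter regions of that group, it came within 1 kb of the start of the noncoding gene 4930577N17Rik. The region at the upstream group had folds of 5.58 and 5.36, and a neighbouring one 1361 bp past the same group had 8.88 and 4.02. In 12 of the 13 regions replicate 1 had the higher fold. The 2 exonic regions were weak, with lower folds of 4.02 and 2.97, but each held TGGGAA within its longer form GTGGGAA together with GGAAGT. Elf1 was spread in a like manner, with 4 promoter regions and 7 intronic regions, whose lower folds ran down to 3.01. The promoter regions at its first TSS were all within 1 kb of the TSS of Wbp4 as well.

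Ets2, a factor induced downstream of growth factor and MAP kinase signals, had 4 regions, of which 3 were in its body of 18977 bp. All 4 were higher in replicate 1. The strongest was not in the gene but beyond its last exon, 26933 bp from the TSS (chr16:95728588-95729675), with folds of 12.84 in replicate 1 and 9.04 in replicate 2. It held 1 match to TGGGAA, shown in the fourth sequence. Of its 2 promoter regions, the one 350 bp past the TSS had folds of 10.66 and 6.85 and the one 219 bp before it 6.6 and 5.36. An intronic region at 6658 bp had 11.42 and 6.36. Summits of the libraries were a median of 22.5 bp apart at Ets2, against 106 bp over the members and 94 bp over all regions.

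Fli1, an ETS factor of blood and endothelial cells, had 8 regions, 1 at the promoter and 7 in introns. The strongest was 32755 bp downstream of the TSS (chr9:32508360-32510327), with folds of 14.64 in replicate 1 and 7.7 in replicate 2. It came within 1 kb of the starts of the noncoding genes Gm38346 and Gm27201. Its window, the third sequence, held a TGGGAA match 12 bp before the summit and a PU.1 match 84 bp after it. The promoter region had folds of 6.34 and 7.29, and a PU.1 match 96 bp before its summit. Fli1 was the only member with more peaks in replicate 2 (19, of which 10 touched a peak of replicate 1) than in replicate 1 (16).

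Etv6 and Etv3 encode ETS proteins known as repressors. Etv6 (also called TEL, required in blood stem cells) had 25 regions over a gene of 234459 bp, more than 99.8% of all genes, but its density of 1.07 per 10 kb was below that of Spi1. All but 2 were intronic. The strongest was 80082 bp into the gene (chr6:134114802-134116072), with folds of 9.13 and 9.37, and its window held no match to any of the 7 motifs searched. The promoter was covered by 2 regions. The one at 443 bp had folds of 8.37 and 10.38, and the one at 70 bp upstream had 7.1 and 7.7 and a TGGGAA match 7 bp from its summit. The highest single fold at Etv6 was 12.18 in replicate 1, at 36859 bp, where replicate 2 gave 6.6. The libraries were close to even at this gene, with 14 regions higher in replicate 1 and 11 in replicate 2.

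**Figure D3:**
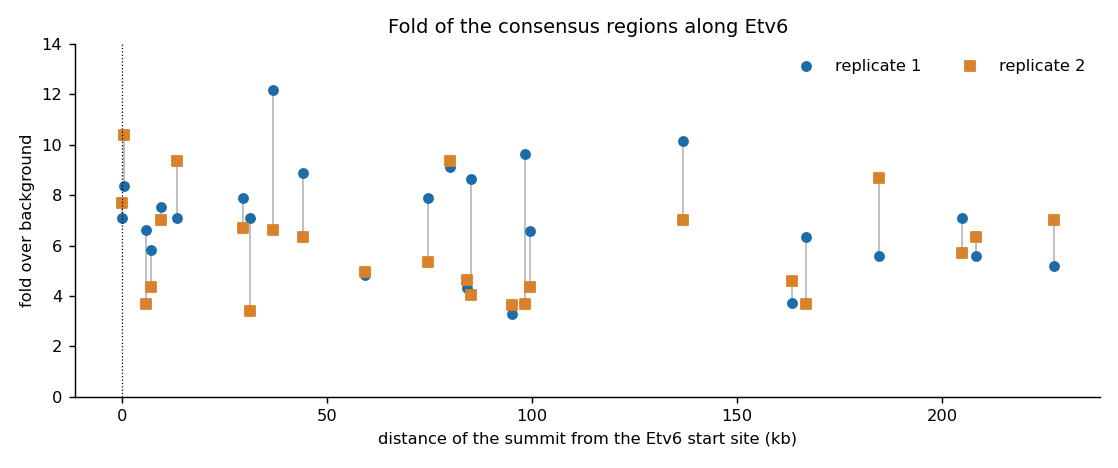
Fold over background (vertical axis, linear) of the 25 Etv6 consensus regions in replicate 1 (circles) and replicate 2 (squares) by the distance in kb of the summit from the start site (horizontal axis, dotted line at the start). The regions ran from the promoter to 227.3 kb into the gene, and the lower fold of the libraries was at most 9.13.

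Etv3 had 1 region, 9451 bp upstream of the gene, with folds of 5.84 and 4.26, and 34.8% of all regions were lower. Its promoter showed how the 2 lists differ. Replicate 1 had 4 narrow peaks within 1 kb of a TSS, with folds of 3.3 to 4.57, while the nearest replicate 2 summit was 2718 bp upstream with a fold of 3.68. Etv5, an ETS factor of the PEA3 group that responds to growth factor signals, had a single region at its promoter, 110 bp upstream of the TSS, with folds of 8.63 and 6.69. Another 3 peaks of replicate 1 near its start sites, with folds of 3.3 to 5.07, were absent from replicate 2.

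Elk3 encodes a ternary complex factor, which binds beside serum response factor. It was the only member with no peak of either library within 1 kb of a TSS: the nearest summit was 10660 bp away in replicate 1 and 2266 bp away in replicate 2. It nevertheless had 4 regions, 3 in introns and 1 upstream. The strongest intronic region, at 23767 bp (chr10:93260787-93261661), had folds of 11.92 and 8.66 and held 2 matches to GGAAGT but none to TGGGAA. The upstream region was the weakest of all 81 by lower fold, with 2.6 in replicate 1 and 5.02 in replicate 2.

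Gabpa encodes the DNA-binding subunit of GABP, the ETS factor of many housekeeping and mitochondrial promoters. Its single region (chr16:84834755-84835350) was 77 bp upstream of a TSS and also within 1 kb of the TSS of Atp5j, so the 2 genes cannot be told apart as its owner. The fold was 9.13 in replicate 1 and 4.35 in replicate 2, or pileups of 35 and 12, whose counting intervals ran from 6.44 to 12.6 and from 2.41 to 7.35 on the fold scale. A PU.1 match began 36 bp before its summit.

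Ordered by the lower fold of the strongest region, the members ran from Elf1 (12.18) through Etv6 (9.13), Ets2 (9.04), Elk3 (8.66), Elf2 (8.37), Fli1 (7.7), Spi1 (7.61) and Etv5 (6.69) to Gabpa (4.35) and Etv3 (4.26). The median was 8.03, against 5.84 over all genes with a region, and without regions over tRNA genes it was 7.66. From Etv6 to Spi1 the counting intervals in replicate 2 overlapped where they could be computed, for example 6.29 to 13.5 for Etv6 and 4.95 to 11.5 for Spi1, so that this order does not separate these genes. In replicate 1 the interval of Elf2 (11.2 to 19.0) lay above that of Spi1 (5.18 to 10.8) for these regions. Another region of Spi1, at 5398 bp, was its highest in replicate 1, with a fold of 9.13. At that fold the replicate 1 interval was 6.44 to 12.6, which overlapped that of Elf2. With summits within 100 bp the value fell to 3.68 at Elk3, to 5.69 at Spi1 and to 8.37 at Etv6, and Etv3 and Etv5 had no region. The places of these genes thus rest on regions whose summits were further apart. A gene with more regions also has more chances of a high one.

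**Figure D4:**
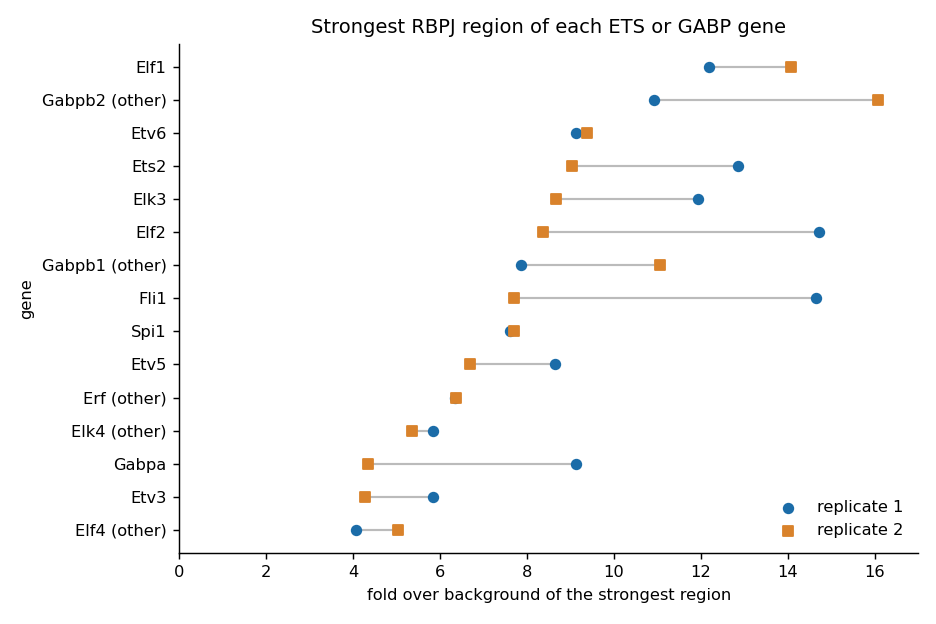
Fold over background (horizontal axis, linear) of the strongest consensus region of each ETS or GABP gene with a region (vertical axis), in replicate 1 (circles) and replicate 2 (squares), joined by grey lines. Genes marked as other are outside the 10 members. The rows run from Elf1 (12.18 and 14.06) at the top to Elf4 (4.06 and 5.02) at the bottom.

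The other ETS and GABP genes differed from the members in how many carried a region. Of 18 further genes, namely the remaining ETS genes and both GABP beta genes, 4 had a promoter region (Erf, Elk4, Gabpb1 and Gabpb2), beside 33.7% of all genes. Any region was present at 5 of the 18, these 4 and Elf4, beside 45.0% of all genes. The members had been chosen with the peaks known, so the contrast with this list is a description. The highest was Gabpb2, whose product is a partner of GABP alpha, with folds of 10.91 and 16.07 just upstream of its TSS. Gabpb1 followed with 7.87 and 11.05 and Erf, a repressor, with 6.34 and 6.36. Spib and Spic, the closest relatives of Spi1, had no consensus region, and neither had Ets1 and Erg, the closest relatives of Ets2 and Fli1. Spib had 2 peaks in replicate 1 alone and Spic had none in either list.

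As a set, the regions of the members were like other consensus regions in width and height. The median width was 596 bp against 593 bp over all, the median fold 6.6 against 6.34 in replicate 1 and 5.02 against 5.02 in replicate 2. Replicate 1 had the higher fold in 70.4% of them (57 of 81) against 72.2% over all, and 91.4% against 90.9% had folds within a factor of 2 of each other. Fewer of them were near a start: 21.0% (17 of 81) lay within 1 kb of a coding TSS against 34.8% over all. By position, 52 of 81 (64.2%) were intronic, a share that was not computed for all regions. Peaks found in a single library were weaker, with a median fold of 3.83 in replicate 1 and 4.02 in replicate 2, and shared peaks had 6.59 and 5.02. Of the members' peaks, 28.4% of those in replicate 1 and 74.8% of those in replicate 2 were shared, against 26.0% and 66.3% over all.

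**Figure D5:**
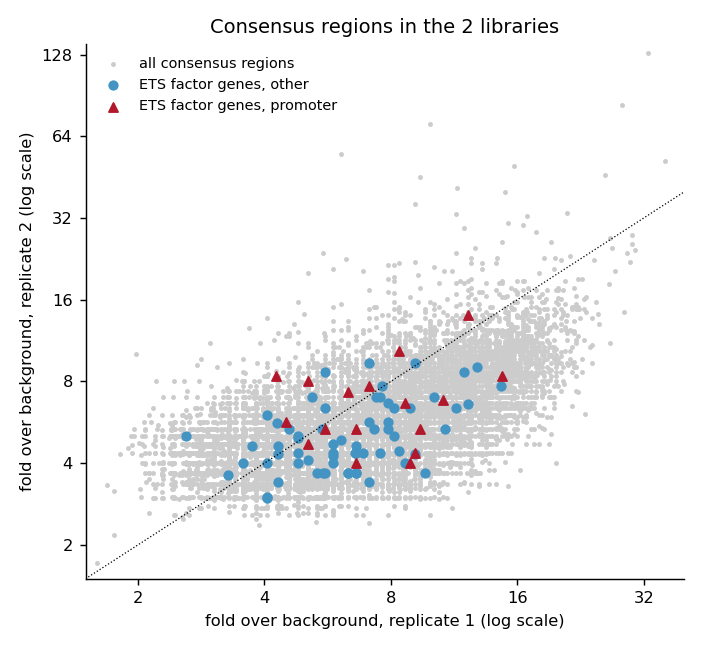
Fold over background in replicate 1 (horizontal axis) and replicate 2 (vertical axis), both on log scales, of all consensus regions (grey), promoter regions of the ETS factor genes (triangles) and their other regions (circles); the dotted line marks equal fold. Of the 81 regions, 57 lie below the line, and Elf1 at 12.18 and 14.06 is the highest above it.

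The letters under the summits were searched on both strands within 100 bp. TGGGAA was present in 18 of the 81 windows (22.2%, Wilson 95% interval 14.5 to 32.4) against 18.8% of all consensus windows, and its longer form GTGGGAA in 5 (6.17%) against 4.64%. The shorter ETS core GGAAGT was present in 31 (38.3%, interval 28.4 to 49.2) against 30.2%. The PU.1 string GAGGAAGT was present in 5 (6.17%) against 6.53%, at Spi1, Fli1 (2 regions), Elk3 and Gabpa. No window held CCGGAAGT, the core of many housekeeping ETS sites, against 2.41% over all. A count of 0 in 81 allows up to 4.53%. AP-1 letters (TGANTCA) were present in 13.6% against 9.3%, and CEBP letters (TTGCNNAA) in 14.8% against 14.3%. In these windows the intervals of the members held the share of all regions for each of the 7 motifs. Exceptions arose elsewhere: within 50 bp of the summit the interval of GTGGGAA was 2.67 to 13.6 against 2.31% over all, and around the summits of replicate 2 that of TGANTCA was 8.68 to 24.1 against 8.26%. TGGGAA and GGAAGT occurred together in 9 windows (11.1%) against 7.1% of all windows, and 29 windows (35.8%) held none of the 7 against 45.2% over all.

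AP-1 letters were present in 4 of the 13 windows of Spi1 and in 0 of the 25 of Etv6, whereas GGAAGT was present in 11 of the 25 of Etv6. Windows of neighbouring regions share a gene and its base composition, so these counts are not independent. The median GC content was 48.3% in the members' windows against 46.8% over all, and 55.2% in those at promoters.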

How the data were processed

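RBPJ HT-ChIPmentation libraries from sorted WT AMs were analysed as the peak lists that the authors deposited, 1 for each of 2 libraries. Per the labels and the methods of the study, demultiplexing used CASAVA and bcl2fastq (2.20.0.422), adapters were removed by Cutadapt, Bowtie2 aligned to mm10, SAMtools filtered the alignments, and MACS3 called each library's peaks over input (q 0.05). Other caller settings were the defaults. The deposited fold enrichment is the ratio of the summit to its background as the authors' caller computed it, and the deposited −log10 q belongs to the same peak. Read depth was not analysed here, so depth and library cannot be told apart.

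Overlapping peaks (at least 1 bp) of both lists were merged, and merged intervals with a peak of each library formed the consensus. The strongest region of a gene had the highest lower fold of the 2 libraries. Its summit was that of the library with the higher fold. Genes and start sites came from the basic GENCODE set (release M21), protein-coding, on 20 chromosomes, and tRNA genes from RefSeq, both on GRCm38, the assembly that mm10 names. No peak ran past a chromosome end. Sequence was read from RefSeq GRCm38.p6. Shares carry Wilson 95% intervals, and intervals cover counting error only. Analyses ran in Python 3.11.15 with pandas 2.3.3, numpy 2.4.6, SciPy 1.17.1, pysam 0.24.0 and matplotlib 3.10.9, and the procedures were tested on simulated data. All 10 members were named, with up to 4 of the further ETS and GABP beta genes with the highest regions and up to 4 without a region. The members and lists were chosen with earlier results of these data known, and tRNA genes were examined after the values had been seen. There was 1 condition, so no test was run.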

Additional observations from a re-analysis of the deposited data

How the results depend on the processing

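Members with a promoter region numbered 7 with peaks of −log10 q 5 or more in both lists (Gabpa lost), beside 24.0% of all genes. They numbered 5 when summits had to lie within 100 bp (Spi1, Fli1 and Etv5 lost), beside 22.6%. With replicate 1 limited to the length of replicate 2 they numbered 8, beside 30.6%. Their number was also 8 with all GENCODE transcripts (beside 35.0%) and with 3 kb either side of a TSS (beside 36.2%). Without regions over tRNA genes, a setting chosen after seeing the data, it was 8 beside 33.6%. The members' regions fell from 81 to 42 at the stricter threshold and to 40 with close summits, while all consensus regions fell from 25454 to 13045 and 14381. Under the same settings those of Spi1 fell from 13 to 6 and 5 and those of Etv6 from 25 to 15 and 9, and those of Elf2 from 13 to 4 at the stricter threshold. Of the further ETS and GABP beta genes, those with a promoter region fell to 2 with close summits. Both were GABP beta genes (Gabpb1 and Gabpb2), and Erf and Elk4 were lost. Taken from a single list, the members' regions numbered 131 to 310 and the median of their strongest regions was 8.37 to 12.05. Of the 18 further genes, Gabpb1 and Gabpb2 included, 5 had a promoter peak in replicate 2, beside 37.5% of all genes, and 7 in replicate 1, beside 46.1%. In each case the lower value was that of replicate 2, and the cause was not tested. The share of windows with TGGGAA was 13.6% within 50 bp of the summit (9.97% of all regions), where the window is narrower by construction. With the nearest TSS alone, or without regions over tRNA genes, the strongest region of Elf1 had a lower fold of 5.36. Of the values of single genes and motifs under these settings, 51 changed by more than the replicate spread, interval or count margin and 123 did not. No paired analysis was possible because the inputs that share replicate numbers with the RBPJ libraries had no file here. The number of libraries, 2, limits every value.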

Other observations

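RBPJ regions over tRNA genes were found beyond Elf1 and Elf2. Of 403 tRNA genes in RefSeq on the chromosomes of the lists, 188 (46.7%) lay under a consensus region, in 119 regions of which some covered several. These regions had a median fold of 12.18 in replicate 1 and 9.71 in replicate 2. They made up 34 of the 257 regions (13.2%) with a higher lower fold than the strongest region of Elf1. TGGGAA was present within 100 bp of the summit in 18 of the 119 (15.1%), against 18.8% of all consensus regions.

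RefSeq promoter sequence, from 250 bases before to 50 after a start, was matched for 8 of the 10 members, that is all but Spi1 and Fli1. TGGGAA was present at 1 start each of Etv5 and Etv6, against 25.6% of 32851 starts, and GAGGAAGT at the start of Gabpa, against 3.2%.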
